A study of Mus musculus with 8 samples.

Results

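Thyrotropin-releasing hormone (TRH) and the local handling of thyroid hormone were followed through 7 genes, *Trh*, *Trhr*, *Trhde*, *Dio2*, *Dio3*, *Slco1c1*, and *Crym*, in 4 hypothalamic nuclei of the mouse. The members were chosen by name, with earlier results of these data known. Every probe whose RefSeq accession belongs to one of these genes was taken, which gave 8 of the 55681 probes and 7 of the 20284 named genes of the array. The nuclei were the arcuate nucleus (Arc), the ventromedial hypothalamus (VMH), the dorsomedial hypothalamus (DMH), and the lateral hypothalamus (LH), cut out of brain sections with a laser. All tissue came from female C57BL/6 mice aged 3 months, of the substrain C57BL/6J in the methods, with no treatment or genetic change named. According to the methods, 2 animals were used and the RNA was amplified as a whole transcriptome before it was labelled, and the sources used here do not tie arrays to animals. Each nucleus was measured on 2 arrays, 8 in all, so p-values measure the spread between these samples.

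TRH is cut out of a larger precursor by prohormone convertases, and neurons of the paraventricular nucleus (PVN), which was not among these arrays, release it to drive thyrotropin secretion from the pituitary. TRH neurons also lie in other parts of the hypothalamus, where the peptide acts on neurons through the receptor encoded by *Trhr* until the ectoenzyme encoded by *Trhde* degrades it. In the brain, thyroxine enters through carriers such as the product of *Slco1c1*, the deiodinase encoded by *Dio2* converts it into the active hormone in tanycytes and astrocytes, the deiodinase encoded by *Dio3* inactivates it, and the product of *Crym* binds the active hormone in the cytosol.

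The promoters of *Trh*, *Dio2*, and *Dio3* are shown because *Trh* and *Dio2* differed among the nuclei and *Dio3* did not pass the test. Of the 7 members, 5 were found in the promoter table of RefSeq (GRCm38.p6), and *Trhr* and *Crym* were not. Each sequence is the 250 bases upstream of the start, 5′ to 3′ on the strand of the gene, and capitals mark the motifs found.
Trh promoter, chr6:92244651-92244900, minus strand: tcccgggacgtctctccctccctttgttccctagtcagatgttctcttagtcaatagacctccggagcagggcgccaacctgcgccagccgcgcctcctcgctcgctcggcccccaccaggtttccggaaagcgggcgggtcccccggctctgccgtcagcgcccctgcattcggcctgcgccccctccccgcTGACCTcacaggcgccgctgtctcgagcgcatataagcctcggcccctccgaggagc
Dio2 promoter, chr12:90739039-90739288, minus strand: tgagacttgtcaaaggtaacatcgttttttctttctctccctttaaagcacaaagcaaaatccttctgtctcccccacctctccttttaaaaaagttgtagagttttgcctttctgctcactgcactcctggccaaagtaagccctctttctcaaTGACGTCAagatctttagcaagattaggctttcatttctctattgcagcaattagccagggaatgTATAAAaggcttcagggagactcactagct
Dio3 promoter, chr12:110278980-110279229, plus strand: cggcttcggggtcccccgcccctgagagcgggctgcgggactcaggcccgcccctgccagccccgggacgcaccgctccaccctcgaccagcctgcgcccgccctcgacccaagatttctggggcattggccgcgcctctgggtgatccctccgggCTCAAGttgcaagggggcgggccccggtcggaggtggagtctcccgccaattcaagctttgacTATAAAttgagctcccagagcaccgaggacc
4 motifs were searched on both strands of the 5 member promoters. The cyclic AMP response element, TGACGTCA, was found 95 to 88 bases upstream of the start of *Dio2*, and 1.55% of the 32851 promoters of the same length hold it. The nuclear receptor half-site, AGGTCA, lay on the reverse strand 57 to 52 bases upstream of *Trh*, where it reads TGACCT, and 14% of promoters hold it. The TATA box, TATAAA, was found 30 to 25 bases upstream of *Dio2* and 31 to 26 bases upstream of *Dio3*, and is held by 12.4% of promoters. CTCAAG, the core of sites bound by Nkx2-1, lay 94 to 89 bases upstream of *Dio3* and is held by 13.3% of promoters. The 3 printed promoters differed in base composition. *Trh* and *Dio3* had 68.8% and 69.6% G and C, and *Dio2* had 41.6%, against a median of 52.4% over all promoters. These matches are a description of letters and not of bound factors.

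The values below, called scaled signals, are signal intensities after each array was divided by its 75th percentile and multiplied by the geometric mean of these percentiles over all arrays. A probe is called measured on an array where the scanner software found it well above background. Each array had 47.1% to 52.7% of its spots well above background. The lowest scaled signal of such a probe was 79.3 to 132, depending on the array. The nuclei carried their markers, with a sum of 129300 to 132100 for *Agrp*, *Npy*, *Pomc*, and *Ghrh* in the Arc against 3153 to 5807 elsewhere, and 17670 to 19750 for *Nr5a1* and *Fezf1* in the VMH against 354.9 to 774.5 elsewhere. Markers of the LH were not confined to the arrays of that nucleus. *Hcrt*, the hypocretin gene of LH neurons, had scaled signals of 55940 and 51280 in the DMH beside 106000 and 116700 in the LH, and 188.1 to 684.4 in the Arc and VMH. *Pmch*, the gene of melanin-concentrating hormone and the other LH marker, had 16250 and 11630 in the DMH, 17650 and 17000 in the LH, and 3938 and 3140 in the VMH, and the difference between the DMH and LH did not pass (adjusted p = 0.561). Across the probes tested, LH2 had a higher correlation with DMH2 (0.954) than with LH1 (0.938). The DMH markers, which the study chose on these arrays, summed to 9792 and 12170 in the DMH, 1084 on LH1, and 154.2 on LH2. The methods describe a check of the dissection by quantitative RT-PCR of *Agrp*, *Nr5a1*, *Hcrt*, and *Crh*, and report that it showed no contamination by neighbouring nuclei. That check was not analysed here. The part of tissue from a neighbouring nucleus in any value below was not tested, and each call of a member or pathway gene that involves the LH or the DMH was repeated without each of their arrays.

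Unless another test or setting is named, tests come from a limma fit to the log2 scaled signals. It covered the 28896 probes that both arrays of some nucleus measured, and p-values were adjusted over all of them. Because the members were chosen with earlier results of these data known, the shares below describe them and do not test them as a set. By the F-test over the 4 nuclei, 7 of the 8 member probes passed an adjusted p of 0.05, where 8.34% of all probes tested did. The exception was *Dio3*. The median range between the highest and lowest nucleus was 2.57 on the log2 scale for the member probes and 0.65 for all probes tested. Over the 6 pairs of nuclei, 21 of 48 member comparisons passed, where 4.13% of all did. In 1 of the 21, *Trh* between the Arc and VMH, neither nucleus measured the probe, which leaves 20. The passing probes numbered 5 between the Arc and DMH (1.26% of all probes), 7 between the Arc and LH (9.34%), 3 between the Arc and VMH, 2 of them measured (5.92%), 3 between the VMH and DMH (2.04%), 3 between the VMH and LH (5.28%), and 0 between the DMH and LH (0.924%). In the last pair, limma gave 5 of the 8 differences an unadjusted p under 0.05, where 15.5% of all probes had one. The one-way test that the methods name, without tying it to the arrays, called 0 after adjustment in this pair. It called 0 of all 48 member differences, so its 0 tells nothing about this pair alone. In bulk tissue, fewer cells of a type and less RNA per cell cannot be told apart.

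**Figure D1:**
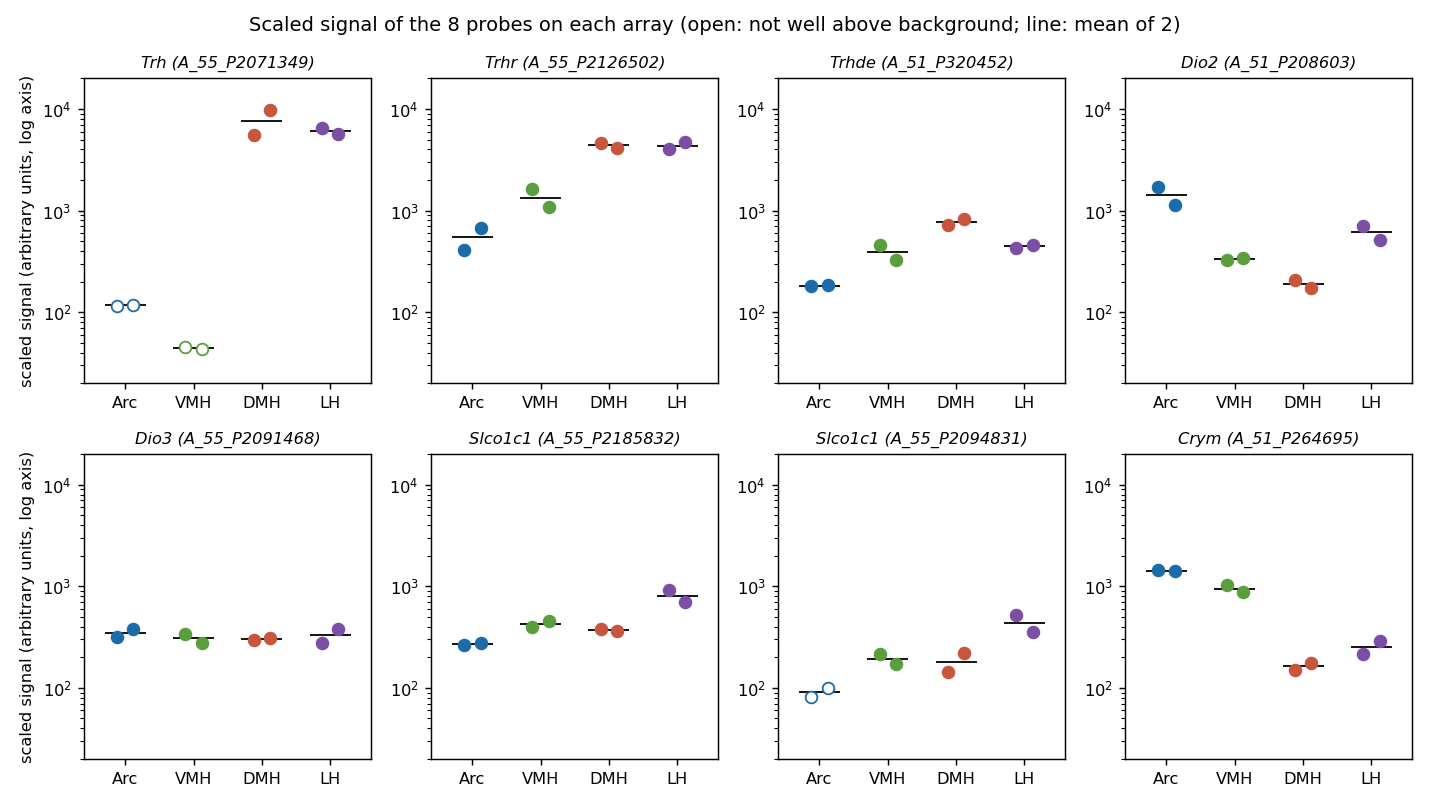
Scaled signal of the 8 member probes on each of the 8 arrays, on a log axis shared by all panels, with a line at the mean of the 2 arrays of a nucleus and open points where the probe was not well above background. *Trh* and *Trhr* were highest in the DMH and LH, *Dio2* and *Crym* in the Arc, and *Slco1c1* in the LH, and the *Dio3* points lie between 277 and 381.3.

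*Trh*, the gene of the TRH precursor, was measured in the DMH and LH and in neither of the other nuclei. Its scaled signals (probe A_55_P2071349) were 5586 and 9818 in the DMH and 6519 and 5690 in the LH. They were 115.5 and 119 in the Arc and 45.52 and 43.83 in the VMH, where no array measured it. Every DMH and LH array was thus far above every Arc and VMH array, while the DMH and LH arrays overlapped. By mean log2 signals, the DMH exceeded the Arc at least 61.1-fold (fitted log2 Arc minus DMH −5.98, SE 0.29, adjusted p = 0.000374) and the VMH at least 71.3-fold (adjusted p = 0.000463). The LH exceeded the Arc at least 50.2-fold (adjusted p = 0.000351) and the VMH at least 58.6-fold (adjusted p = 0.000386). These bounds compare the bright nucleus with the higher of the lowest measured signal and the own signal of the probe on each dim array. They allow for unmeasured signals and not for the spread between arrays. The 95% intervals of the fitted differences were −6.66 to −5.3 (Arc minus DMH), −8.05 to −6.7 (VMH minus DMH), −6.38 to −5.02 (Arc minus LH), and −7.77 to −6.41 (VMH minus LH). The difference between the DMH and LH was 0.28 on the log2 scale (95% interval −0.40 to 0.96, adjusted p = 0.652). The difference between the Arc and VMH passed at an adjusted p of 0.0376, but neither nucleus measured the probe, so no fold is given. The bounds hold for the authors' background subtraction, since normexp in its place, with its offset, gave 22.3-fold and 30.1-fold for the DMH and 18.5-fold and 25-fold for the LH over the Arc and VMH. The 4 measured differences passed with any 1 of the 8 arrays left out and with normexp.

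The markers of the neighbouring PVN, the main site of TRH neurons that drive the pituitary, were read beside *Trh*. *Sim1*, a transcription factor of PVN neurons, was measured on none of the 8 arrays. *Crh*, which encodes corticotropin-releasing hormone and is also made outside the PVN, was measured, like *Trh*, on both arrays of the DMH (mean 2284) and LH (mean 4277), as well as on 1 VMH array, and had an F-test adjusted p of 0.00409. *Oxt*, the oxytocin gene, was high on Arc1 (6559) and LH2 (8332) and not measured on either DMH array. 3 of the 4 PVN markers were measured on some array and 1 passed the F-test. Their sum was 2245 to 2832 in the DMH, 5355 to 14460 in the LH, 1177 to 6971 in the Arc, and 540.6 to 1418 in the VMH. The part of PVN tissue in the *Trh* signal was not tested.

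*Trhr*, the receptor gene, was measured on all 8 arrays and had its highest signals in the DMH and LH, as *Trh* did. Its scaled signals (A_55_P2126502) were 4612 and 4137 in the DMH, 4003 and 4736 in the LH, 1616 and 1073 in the VMH, and 407.2 and 681.3 in the Arc. The DMH and LH arrays overlapped, the VMH arrays lay below them, and the Arc arrays lay below those of the VMH. The receptor signal of the DMH was 8.29-fold that of the Arc (log2 Arc minus DMH −3.05, SE 0.32, adjusted p = 0.00895), and that of the LH was 8.27-fold (adjusted p = 0.00311). Against the VMH, the DMH was 3.32-fold higher (adjusted p = 0.049) and the LH 3.31-fold higher (adjusted p = 0.0293). The log2 difference was 0.00 for the DMH minus the LH (95% interval −0.75 to 0.76, adjusted p = 0.995) and −1.32 for the Arc minus the VMH (−2.08 to −0.57, adjusted p = 0.063). With single arrays left out, the difference between the VMH and DMH passed only without LH1 (0.0434, otherwise 0.0527 to 0.243), and that between the VMH and LH missed the threshold without LH2 or any VMH or DMH array (0.0584 to 0.14). The difference between the Arc and DMH missed it without DMH1 (0.0687) and without Arc1 (0.0511), that between the VMH and DMH also with a replicate block (0.0804), quantile normalization (0.0502), or no filter on dim probes (0.0848), and that between the VMH and LH with no such filter (0.0532).

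*Trhde*, the gene of the TRH-degrading ectoenzyme, was lowest in the Arc. Its scaled signals (A_51_P320452) were 182.1 and 184 in the Arc, 463.3 and 327.5 in the VMH, 427.5 and 461.1 in the LH, and 719.3 and 827.5 in the DMH. Both Arc arrays were below, and both DMH arrays above, all others, and the VMH and LH arrays overlapped. The signal in the Arc was 4.21-fold lower than in the DMH (log2 Arc minus DMH −2.08, SE 0.23, adjusted p = 0.0104), 2.43-fold lower than in the LH (adjusted p = 0.0195), and 2.13-fold lower than in the VMH (adjusted p = 0.0414). The DMH exceeded the LH by 0.80 on the log2 scale (95% interval 0.25 to 1.34), which did not pass (adjusted p = 0.192). With Arc1 or Arc2 left out, these 3 differences had adjusted p of 0.0797 to 0.217, and the F-test (adjusted p = 0.0114) had 0.0793 and 0.0764. Leaving out a DMH array ended the call against the DMH (0.0648 and 0.0716) and that against the VMH (0.0853 and 0.088), leaving out a VMH array also ended the latter (0.228 and 0.0673), as did a replicate block (0.0647), normexp (0.0663), and no filter on dim probes (0.0905), and the F-test gave 0.0529 without DMH2. With normexp the DMH exceeded the Arc 2.53-fold (adjusted p = 0.00604).

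**Figure D2:**
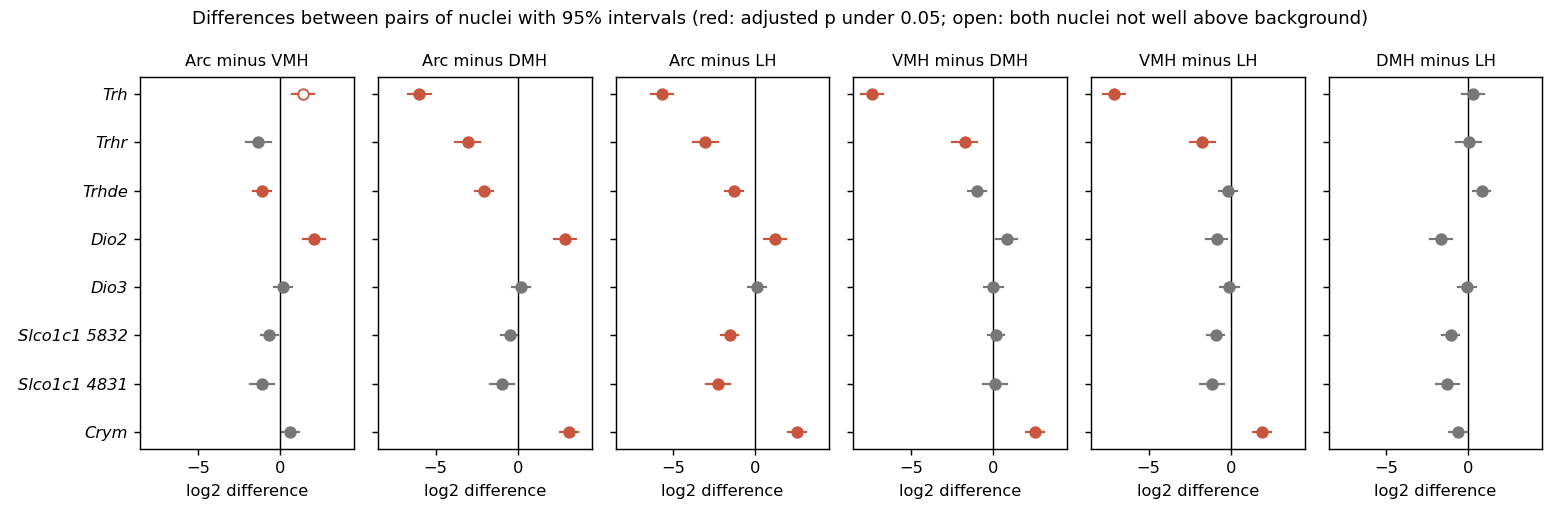
Log2 difference of each member probe (rows) for the 6 pairs of nuclei (panels), first nucleus minus second, with the 95% interval of the limma fit, in red where the adjusted p was under 0.05 and open where neither nucleus measured the probe. *Trh*, *Trhr*, and *Trhde* lie left of 0 in the panels of the Arc against the DMH and LH, *Dio2* and *Crym* lie right of it, and no difference between the DMH and LH passed.

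*Dio2*, which encodes the deiodinase that activates thyroxine, was highest in the Arc, which passed against all 3 other nuclei. Its scaled signals (A_51_P208603) were 1712 and 1130 in the Arc, 712.5 and 518.2 in the LH, 324 and 344.4 in the VMH, and 209.3 and 171.2 in the DMH. The arrays of the 4 nuclei did not overlap. The Arc signal was 7.35-fold higher than in the DMH (log2 Arc minus DMH 2.88, SE 0.28, adjusted p = 0.00705), 4.16-fold higher than in the VMH (adjusted p = 0.00908), and 2.29-fold higher than in the LH (adjusted p = 0.0447). Among the other nuclei, the log2 difference was −1.68 for the DMH minus the LH (95% interval −2.35 to −1.02, adjusted p = 0.0534), −0.86 for the VMH minus the LH (−1.53 to −0.20, adjusted p = 0.142), and 0.82 for the VMH minus the DMH (0.15 to 1.48, adjusted p = 0.282). The test thus did not separate these 3 nuclei. With single arrays left out, the difference from the LH passed only without LH1 (0.0354, otherwise 0.0731 to 0.245), and it also missed the threshold without scaling (0.173) and with no filter on dim probes (0.0859). That from the VMH missed the threshold without Arc1 (0.0667), VMH1 (0.0744), and VMH2 (0.0612), while that from the DMH passed without any 1 array and was 4.4-fold with normexp.

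Markers of tanycytes, the cells of the floor of the third ventricle that border the Arc and are known to make *Dio2*, moved with it in part. The 6 markers of tanycytes and ependyma summed to 6302 to 6886 in the Arc, 3541 to 4227 in the DMH, 2124 to 2313 in the LH, and 1657 to 2236 in the VMH, and 4 of 6 passed the F-test. These were *Rax*, *Vim*, *Col23a1*, and *Gpr50*, of which *Gpr50* was not highest in the Arc. *Ccdc153*, of the same list, had means of 1015 in the Arc, 1023 in the VMH, 928.8 in the LH, and 812.6 in the DMH (F-test adjusted p = 0.872). *Rax*, a transcription factor of tanycytes, was measured on both Arc arrays (1738 and 1360) and on 1 other. *Vim*, the vimentin gene, had means of 1715 in the Arc, 814.1 in the LH, 622.5 in the DMH, and 381.5 in the VMH. *Gpr50*, also made by neurons of the DMH, was highest in the DMH (mean 1936), where *Dio2* was lowest, and *Foxj1*, a gene of ciliated ependyma, was measured on no array. Of the pituitary markers only *Cga*, the common subunit of the glycoprotein hormones, was measured, on Arc1 (1425) and not on Arc2 (28.62), and *Dio2* was 1712 and 1130 on these arrays. The part of tanycytes and of pituitary tissue in the *Dio2* difference was not tested.

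*Dio3*, whose product inactivates thyroid hormone, did not pass the test in any pair of nuclei. Its scaled signals (A_55_P2091468) were 318.1 and 375.9 in the Arc, 339.2 and 277 in the VMH, 299.4 and 308.1 in the DMH, and 277.5 and 381.3 in the LH. The arrays of the nuclei overlapped except those of the Arc and DMH. The F-test gave an adjusted p of 0.905, and the widest pair, the Arc against the DMH, differed by 0.19 on the log2 scale (95% interval −0.38 to 0.75, adjusted p = 0.896). The opposite-strand neighbour *Dio3os* (A_55_P1962861), a non-coding RNA of the same imprinted locus, was measured on 6 arrays and had an F-test adjusted p of 0.971.

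*Slco1c1*, the thyroxine carrier of brain vessels and astrocytes, had more signal in the LH than in the Arc by both of its probes. The scaled signals of the brighter probe (A_55_P2185832) were 918.6 and 693.2 in the LH, 394.2 and 456.3 in the VMH, 384.2 and 367.2 in the DMH, and 262 and 276.2 in the Arc. Those of the other probe (A_55_P2094831) were 521.3 and 355.4 in the LH, 217.9 and 170.1 in the VMH, 144.4 and 218.6 in the DMH, and 81.73 and 99.01 in the Arc, where it was not well above background. On both probes each LH array was above all others and each Arc array below all others. The LH signal was 2.97-fold that of the Arc by the first probe (log2 Arc minus LH −1.57, SE 0.22, adjusted p = 0.0077) and at least 3.81-fold higher by the second (adjusted p = 0.0069). That bound compares means, as for *Trh*, and the 95% interval of the fitted difference by the second probe was −2.98 to −1.53. With normexp, the second probe gave 2.05-fold (adjusted p = 0.0116). By the first and second probe, the log2 difference of the VMH minus the LH was −0.91 (95% interval −1.43 to −0.40, adjusted p = 0.0637) and −1.16 (−1.88 to −0.44, adjusted p = 0.0837). That of the DMH minus the LH was −1.09 (−1.60 to −0.57, adjusted p = 0.0841) and −1.28 (−2.00 to −0.55, adjusted p = 0.136). The difference from the Arc missed the threshold without Arc1 by both probes (0.0669 and 0.0625) and without Arc2 by the first (0.0533). The F-test (adjusted p = 0.0231 and 0.0228) missed it by both probes without any 1 of the Arc or VMH arrays (0.0589 to 0.12), by the first also without DMH1 (0.0632), DMH2 (0.0645), or any scaling (0.0958).

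Markers of the cells that make this carrier were read beside it. Of the 12 markers of endothelium and astrocytes, *Flt1* and *Slc1a2* passed the F-test with their highest mean in the LH. The 6 markers of brain endothelium summed to 7821 to 8869 in the LH, 4963 to 7416 in the DMH, 4271 to 4774 in the VMH, and 3816 to 4163 in the Arc. Only *Flt1*, a receptor for vascular endothelial growth factor, passed the F-test among them (adjusted p = 0.0348), *Pecam1* was measured on 1 array, and *Tek* was lowest in the LH (mean 327.1). The 6 astrocyte markers summed to 54570 to 55440 in the LH, 37120 to 37410 in the DMH, 35370 to 36010 in the VMH, and 27340 to 33620 in the Arc, and 2 of 6 passed, *Slc1a2* and *Gfap*. *Slc1a2* was the brightest of the 6 and weighed most in the sum, with means of 31090 in the LH and 12830 to 18020 elsewhere. *Gfap*, of astrocyte filaments, was highest in the Arc (mean 5036), and *Gja1* and *Slc1a3* had their highest means in the DMH. The 5 oligodendrocyte markers, all of which passed, summed to 74310 to 77190 in the LH and 7226 to 22470 elsewhere. The part of cell composition in the *Slco1c1* difference was not tested.

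**Figure D3:**
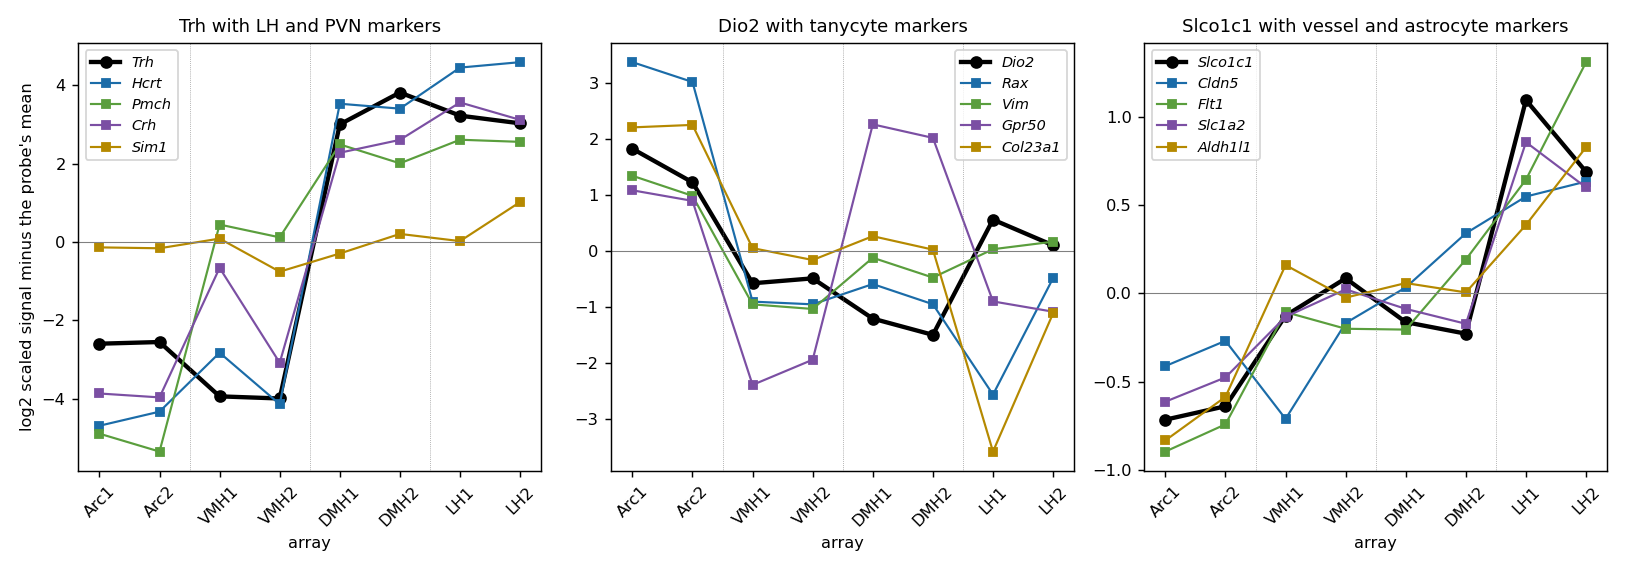
Log2 scaled signal of *Trh*, *Dio2*, and the brighter *Slco1c1* probe (black) and of cell type or region markers (coloured) on the 8 arrays, each probe minus its own mean over the arrays. *Ccdc153* and *Foxj1*, of the list of tanycytes and ependyma, are not drawn. *Crh*, *Hcrt*, and *Pmch* are high with *Trh* in the DMH and LH while *Sim1* was not well above background on any of these 8 arrays, *Rax*, *Vim*, and *Col23a1* are high with *Dio2* in the Arc while *Gpr50* is highest in the DMH, and the 4 vessel and astrocyte markers drawn here are highest with *Slco1c1* in the LH, unlike *Tek*, *Gja1*, *Slc1a3*, and *Gfap* of the same lists.

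*Crym*, which encodes the cytosolic binding protein mu-crystallin, divided the nuclei into a high and a low pair. Its scaled signals (A_51_P264695) were 1444 and 1408 in the Arc, 1020 and 883.3 in the VMH, 215.9 and 292.8 in the LH, and 150.3 and 176.4 in the DMH. The arrays of the 4 nuclei did not overlap. The Arc signal was 8.76-fold higher than in the DMH (log2 Arc minus DMH 3.13, SE 0.23, adjusted p = 0.00185) and 5.67-fold higher than in the LH (adjusted p = 0.00219). The VMH signal was 5.83-fold higher than in the DMH (adjusted p = 0.00376) and 3.77-fold higher than in the LH (adjusted p = 0.00765). Within the pairs, the log2 difference was 0.59 for the Arc minus the VMH (95% interval 0.04 to 1.13, adjusted p = 0.21) and −0.63 for the DMH minus the LH (−1.17 to −0.08, adjusted p = 0.27). With single arrays left out, the difference between the VMH and LH missed the threshold without VMH1 (0.0616), and the other 3 passed without any 1 array. With normexp all 4 passed with smaller folds, of 4.54 and 3.48 for the Arc and 3.27 and 2.51 for the VMH over the DMH and LH.

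The wider pathway was described with a list of 40 genes that are not members, 36 of which were tested, each by its brightest probe. Of these, 8 passed the F-test (22.2%), where 10.8% of the brightest probes of all named genes tested did. With single arrays left out, 0 (without VMH1) to 9 passed, and without scaling 4. The median range of the list was 0.74 on the log2 scale, against 0.64. The list too was chosen with earlier results known, so these shares do not test it as a set. Among the 6 genes that process peptide precursors, 2 passed. *Pcsk1*, a convertase that cuts the TRH precursor, had means of 2944 ± 148 (SD, n = 2) in the LH, 1687 ± 203 in the Arc, 1265 ± 60.9 in the DMH, and 997 ± 10.4 in the VMH. It was higher in the LH than in the VMH (adjusted p = 0.0083), DMH (adjusted p = 0.047), and Arc (adjusted p = 0.0475). Of these calls, that against the Arc was lost without any 1 of the 8 arrays (up to 0.262), that against the DMH without any 1 array of the Arc, VMH, or DMH (up to 0.191), and that against the VMH without VMH1 or VMH2 (up to 0.0616). *Pcsk2*, the other main convertase, was lowest in the Arc by its brighter probe (mean 10200, F-test adjusted p = 0.0495), while its second probe gave an adjusted p of 0.481. The brighter probe passed with 1 of the 8 arrays left out (LH1) and otherwise gave up to 0.227. *Cpe*, *Pam*, *Qpct*, and *Qpctl*, whose products trim, amidate, and cyclize the peptide, did not pass. Of the 3 genes of TRH degradation and the second receptor, neither *Pgpep1* nor *Prep* passed by limma, though both had an unadjusted p under 0.05. The methods' test called 0 of them, where it called 1 gene of the whole list. *Trhr2*, a second TRH receptor gene, was measured on no array.

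**Figure D4:**
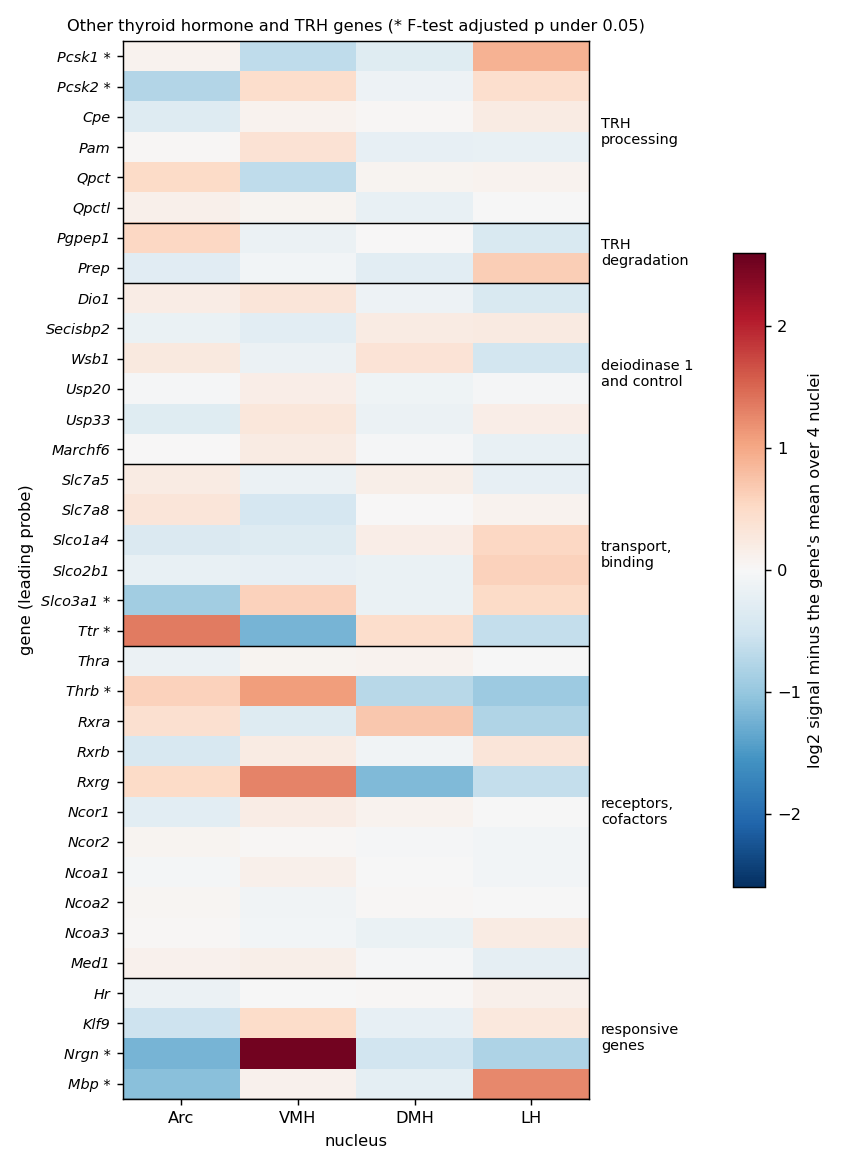
Log2 scaled signal of 35 of the 36 tested genes of the pathway list in the 4 nuclei, each gene minus its mean over the nuclei, by its brightest probe and grouped by role, with an asterisk where the F-test adjusted p was under 0.05. Most rows are pale, and the deepest colours belong to *Nrgn* in the VMH, *Ttr* in the Arc, *Mbp* in the LH, *Thrb* in the VMH, and *Rxrg*, which missed the threshold (adjusted p = 0.0522).

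Among the carriers and binding proteins of thyroid hormone that passed were *Slco3a1* and *Ttr*. *Slco3a1*, an organic anion carrier, was lower in the Arc (mean 1951) than in the VMH (5575, adjusted p = 0.0112) and LH (5159, adjusted p = 0.0116). The call against the LH was lost without Arc1 or Arc2 (up to 0.0961), and that against the VMH also without VMH1 (up to 0.0948). *Ttr*, which encodes transthyretin and is made in bulk by the choroid plexus, was measured on both Arc arrays (209.3 and 251.4), on 1 DMH array (160.6), and on none of the VMH or LH. Its F-test (adjusted p = 0.0327) was lost without Arc1, Arc2, VMH1, DMH1, or DMH2 (up to 0.15). *Slc16a10* and *Slco1a5* were measured on no array. For *Dio1*, which encodes the deiodinase of liver and kidney, and 5 genes that act on deiodinase protein, limma called 0 after adjustment and 1 at an unadjusted p under 0.05. The methods' test called 0, where it called 1 gene of the whole list. The brightest *Dio1* probe had an adjusted p of 0.508. A dimmer *Dio1* probe, measured on 6 arrays, gave 0.0339, so its probes disagree.

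Of 11 nuclear receptors and cofactors, only *Thrb* passed by its brightest probe. *Thrb*, a thyroid hormone receptor, had means of 1199 ± 102 in the VMH, 852 ± 9.45 in the Arc, 353 ± 117 in the DMH, and 292 ± 1.34 in the LH (F-test adjusted p = 0.0105), and its second probe also passed (0.0243). It was higher in the VMH than in the LH (adjusted p = 0.00908) and DMH (adjusted p = 0.0203) and higher in the Arc than in the LH (adjusted p = 0.0155). These calls were lost without either VMH array for the VMH over the LH (up to 0.0748), without those, either Arc array, or DMH1 for the VMH over the DMH (up to 0.141), and without either Arc array for the Arc over the LH (up to 0.104), and the F-test was lost without VMH1 (0.0591). *Thra*, the other receptor gene, had means of 4965 to 5926 (adjusted p = 0.888) by its brightest probe and 0.0505 by its second, and it overlaps *Nr1d1* in the annotation. *Rxrg*, a partner receptor, missed the threshold by its brightest probe (0.0522) and passed by its second (0.0173). Of 4 tested genes known to respond to thyroid hormone, *Nrgn* and *Mbp* passed. *Nrgn*, which encodes the neuronal protein neurogranin, had 23280 and 23570 in the VMH and 1317 to 4209 elsewhere, and it was higher in the VMH than in the Arc (adjusted p = 0.00776), LH (0.0137), and DMH (0.03). The call against the LH was lost without either VMH array (up to 0.0952), that against the Arc without any 1 Arc or VMH array (up to 0.0662), and that against the DMH without any 1 array of the Arc, VMH, or DMH (up to 0.168). *Mbp*, the myelin basic protein gene, is also an oligodendrocyte gene and by its brightest probe had its highest mean in the LH (29250, F-test adjusted p = 0.0233, and up to 0.0862 without Arc1, Arc2, VMH1, DMH1, or DMH2). Its other 2 probes had their lowest mean there (1258 and 2464, against 1887 to 3030 and 2835 to 4323 elsewhere) and did not pass (0.0917 and 0.287), so its probes disagree.

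The genes most like each member in pattern were found by the smallest root mean square difference from its brightest probe over the 8 arrays, among 13114 named genes and after each probe was centred on its mean log2 signal. For *Trh*, whose own SD over the arrays was 3.31 on the log2 scale, these were *Ebf3* (0.57), *Nrn1* (0.64), and *Hcrt* (1.28). *Ebf3* and *Nrn1*, like *Trh*, were measured on 4 of 8 arrays, and their Arc and VMH signals of 18.33 to 40 scaled units were not well above background. For *Trhr* they were *Sema3c* (0.27), *9330179D12Rik* (0.45), and *Htr2c* (0.46), against an own SD of 1.31. *Galr1* (0.27), *Cachd1* (0.29), and *Epha7* (0.32) were nearest to *Trhde* (own SD 0.75), and *Apobec1* (0.39), *Anxa2* (0.41), and *Crispld2* (0.42) to *Dio2* (own SD 1.09). *Tmem230*, *Slc1a2*, and *Qk* were nearest to *Slco1c1*, at 0.12 each against an own SD of 0.58. *Six3os1* (0.26), *Cfap126* (0.27), and *Fgf10* (0.29) were nearest to *Crym* (own SD 1.31). Of these genes, *Galr1* was measured on 2 arrays, *9330179D12Rik* and *Fgf10* on 4, and *Apobec1* on 7, so the likeness of these and of *Ebf3* and *Nrn1* rests in part on signals not well above background. All of this is a description over 8 arrays that share their scaling.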

How the data were processed

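Gene expression in 4 laser-microdissected nuclei was measured with 8 one-color Agilent arrays of 1 slide, 2 per nucleus, grouped by their labels. Spot intensity values were obtained by the authors with Agilent Feature Extraction (version 10.7.3.1 per the file headers, 11.5.1.1 per the submitters' processing notes). The deposited intensity used is the processed signal, which is linear, background-subtracted, and not scaled between arrays. The labels give Cy3 and the methods Cy5 as the dye, and the files hold the red channel.

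Outlier spots (none of a member probe) and controls were left out, replicate spots were averaged, and the log2 of the signal over the 75th percentile of the array was used. A constant shared by all arrays, the log2 of the geometric mean of the 75th percentiles, was added. A mean for each nucleus was fitted with limma 3.58.1 in R 4.3.3 to 28896 probes, with 4 residual and 3.02 prior degrees of freedom and Benjamini-Hochberg adjustment over all probes at a threshold of 0.05. The script was tested on simulated data. A signal not well above background kept its value in means and fits. The number of arrays limits the precision. Of 28390 probes with a RefSeq accession, 26762 (94.3%) were named through GRCm38.p6, which was used for names, neighbouring genes, and promoters. The build of the probes was not given in the sources used here.

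The members and lists were chosen with earlier results of these data known. Named were all members, *Dio1*, *Thra*, *Thrb*, *Ttr*, and *Trhr2*, up to 10 passing pathway genes with the largest range, and the 3 genes most like each passing member. Other genes were named after their values were seen, and 1 gene of the pathway list is counted but not reported here. Of 52 marker genes, 51 had a probe. Besides the lists in the report, 4 neuronal markers summed to 121600 to 169400 (1 passed the F-test), and 4 microglial markers to 73820 to 115200 (0 passed by limma, 2 at an unadjusted p under 0.05, and 0 by the methods' test, which also called 0 neuronal markers). Alternatives were no scaling, quantile normalization, normexp with an offset of 50, the deposited value table, other filters on dim probes, outlier spots kept, dim signals raised, a replicate block, each array left out, trended and robust moderation, and the one-way analysis of variance with Tukey-Kramer tests of the methods. The methods name that test for more than 2 groups in general, and they select genes on the arrays by a ratio of signals.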

Additional observations from a re-analysis of the deposited data

How the results depend on the processing

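In the main analysis 7 member probes, 21 of the 48 member differences, and 8 pathway genes passed. With each array left out in turn, these counts were 4 to 7, 11 to 21, and 0 to 9, while the share of all probes passing the F-test ran from 3.06% (without Arc1) to 12.2% (without LH2), against 8.34%. The count of member probes was lowest (4) without Arc1 or Arc2, that of differences (11) without Arc1, and that of pathway genes (0) without VMH1. The pathway count was 4 without scaling and 5 with no filter on dim probes, where 6.5% and 3.15% of all probes passed the F-test. The methods name a one-way test with Tukey-Kramer tests without tying it to the arrays. By it, 2 member probes, 0 member differences, and 1 pathway gene passed after adjustment, where 1.84% of all probes did. At an unadjusted p under 0.05, 7 member probes and 26 differences passed, where 21.8% of all probes and 8.49% of all differences did. That test uses each probe's own spread over 2 arrays per nucleus. Without scaling, the median log2 difference over all probes was −0.46 for the Arc minus the DMH. In that setting 6 member probes and 20 differences passed, where 6.5% of all probes passed the F-test. With the replicate number as a block, 7 member probes, 18 differences, and 6 pathway genes passed, where 7.2% of all probes passed the F-test. In that fit, *Trh* between the Arc and VMH (adjusted p = 0.0544), *Trhr* between the VMH and DMH (0.0804), and *Trhde* between the Arc and VMH (0.0647) missed the threshold. Deviations of same-numbered arrays correlated at −0.026 to 0.258, so the numbers were not taken as pairs, and which arrays share an animal stays unknown. No passing difference changed direction under any alternative. Among those that did not pass, *Dio3* for the Arc minus the LH (0.09) became −0.07 without scaling and −0.053 by quantile normalization, and lay between −0.141 (without LH1) and 0.317 (without LH2) with arrays left out. With arrays left out, the DMH minus the LH lay between −0.117 (without LH1) and 0.126 (without LH2) for *Trhr*, and between −0.125 (without DMH2) and 0.689 (without DMH1) for *Trh*. It was also below 0 without DMH1 for *Trhr* (−0.074), as was the *Dio3* difference without Arc2 (−0.032). The causes were not tested. With a filter on all 8 arrays, *Trh* and the second *Slco1c1* probe were not tested, and 5 member probes passed, where 10.6% of all probes did. A probe not well above background gives only a bound.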
